A study of Mus musculus with 8 samples.

Results

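Elovl1, Acaca, Acsbg1, Fabp3, Fabp5, Apod, Nsdhl and Cyp51 encode enzymes that build fatty acids and sterols in the brain and proteins that carry fatty acids. They are 8 of the 2372 genes in the deposited table, found there by matching its coordinates exactly to GENCODE M21 genes (GRCm38). They were chosen by their measured fold changes, each being lower in the knockout in that table, so these are given as a description. The study sequenced RNA from the medial prefrontal cortex (mPFC) of 8 naive adult male mice on a C57Bl/6J background, to look for the molecular basis of a glutamate vesicle shortage. The 4 CaKO mice carried CamK2A-Cre;Gpr158flox/flox, in which Cre made under the CamK2A promoter of forebrain excitatory neurons deletes the orphan receptor gene Gpr158. The 4 controls were littermates with Gpr158flox/flox and no Cre, so both genotypes carry the floxed allele. The tissue was not sorted, so each library mixes neurons with glia and vessels. Fewer cells of a type and less RNA per cell cannot be told apart in such samples. The table holds genes with an unadjusted p up to 0.0499 and has 0 rows for Gpr158. The targeted gene thus had a larger p or was left out for another reason, and which of these holds is unknown. A lower level of Gpr158 in CaKO is therefore not shown, and the genotypes are taken from the sample labels alone. Values of single libraries were used for the 4 CaKO mice, and those of the control libraries are not analysed here.

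The brain makes most of its cholesterol itself and needs large amounts of very long saturated fatty acids for the sphingolipids of myelin. Acaca makes malonyl-CoA, the building unit of fatty acids, and Elovl1 lengthens saturated acyl chains for sphingolipids. Acsbg1 couples long fatty acids to coenzyme A, while Fabp3 and Fabp5 bind free fatty acids in the cytosol and Apod is a secreted lipocalin that binds small lipids. Cyp51 and Nsdhl remove methyl groups from lanosterol and its products on the way to cholesterol.

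Fabp3 and Fabp5 belong to one family, and their coding sequences are shown because they bear on how far reads of these genes can be mixed up. In the GENCODE M21 transcripts, Fabp3 has 133 codons and Fabp5 135, without the stop codon. The coding sequences were identical at 58.8% of 396 aligned bases, and the longest run they share is 10 bases, far under the length of a read. The first 90 bases that align without a gap follow, with capitals at the 40 positions where the pair differs. They are bases 6 to 95 of the Fabp3 coding sequence and 12 to 101 of that of Fabp5.
Fabp3: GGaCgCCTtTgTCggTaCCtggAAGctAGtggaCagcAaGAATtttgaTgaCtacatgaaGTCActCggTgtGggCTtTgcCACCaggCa
Fabp5: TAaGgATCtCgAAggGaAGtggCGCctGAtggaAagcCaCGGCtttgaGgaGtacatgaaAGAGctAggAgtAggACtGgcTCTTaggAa
Of the 6 family members compared with Fabp3, the closest was Fabp7, with 71.9% identity and a longest shared run of 20 bases. Copies elsewhere in the genome are much nearer. Fabp3-ps1, a processed pseudogene, is 99.3% identical to Fabp3 over 402 bases, and Gm6166 and Gm14328 are 98.3% and 97.3% identical to Fabp5 over 409 and 408 bases. Acaca has such a copy as well, Gm5182, at 99.2% over 6118 bases. None of these 4 pseudogenes has a row in the table, and reads they share with Fabp3, Fabp5 and Acaca make those values uncertain to an extent that was not tested.

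Promoters of members are shown because all 8 transcripts were lower in one comparison and part of the pathway is known to answer to sterol-sensing transcription factors. RefSeq promoters (GRCm38.p6) were found for 7 of the 8, all but Fabp5. For Acaca the window found (chr11:84195188-84195437) lies inside the gene, which starts at 84129672. The sequence before that outer start was therefore not searched, and Acaca counts among the 7 by this inner window alone. In the 250 bases before each start site, on both strands, the sterol response element letters TCACCCCAC and the shorter TCACCCCA were found in 0 of the 7, as was the E-box CACGTG. Of all 27025 genes with a promoter window, 0.56%, 1.54% and 6.86% hold these letters in at least 1 window. Only these exact spellings were searched, so variants of the elements would be missed and their absence is not shown. The letters CCAAT, which overlap none of the other motifs, stood in a window of 4 of the 7 genes (Elovl1, Acsbg1, Nsdhl and Cyp51), against 37.49% of all genes. Elovl1, the gene with the largest decrease of the 8, has start sites 1 and 2 in RefSeq, and the window of the second (chr4:118429451-118429700, GC content 58.0%) holds no CCAAT. Its first promoter lies at chr4:118427843-118428092 on the plus strand, and that of Nsdhl at chrX:72918271-72918520 on the plus strand. Capitals mark CCAAT, or ATTGG where it is on the opposite strand.
Elovl1: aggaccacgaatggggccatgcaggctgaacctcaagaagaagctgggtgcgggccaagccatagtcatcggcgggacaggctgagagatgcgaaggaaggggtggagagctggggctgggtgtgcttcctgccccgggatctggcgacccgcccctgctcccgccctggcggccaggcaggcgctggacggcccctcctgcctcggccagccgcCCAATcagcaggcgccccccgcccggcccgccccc
Nsdhl: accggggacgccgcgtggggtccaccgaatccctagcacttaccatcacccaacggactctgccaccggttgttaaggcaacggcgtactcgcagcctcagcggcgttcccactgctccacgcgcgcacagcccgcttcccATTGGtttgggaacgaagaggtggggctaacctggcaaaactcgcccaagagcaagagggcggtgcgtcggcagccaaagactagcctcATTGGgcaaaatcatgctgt
The CCAAT of Elovl1 starts 35 bases before the start site, and the pair in Nsdhl starts 109 and 20 bases before it. GC content was 72.0% in this Elovl1 window and 61.6% in that of Nsdhl. These are matches of letters and no factor's binding was measured.

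All 8 genes were lower in CaKO, and 3 of them fell by the authors' test: the elongase Elovl1 and the carriers Fabp3 and Fabp5. A gene was taken to have fallen or risen where its adjusted p in the authors' deposited table was below 0.05, which held for 1.97% of the 12938 genes in the adjustment as lower and for 1.27% as higher. Because this contrast chose the members, nothing is read from 3 of 8. The median log2 fold change of the 8 was -0.33 in the authors' deposited table, against -0.37 over all 1123 genes that were lower at an unadjusted p below 0.05. Standard errors and 95% intervals of fold changes were derived from the deposited fold change and its p, taking the test as a normal one.

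**Figure D1:**
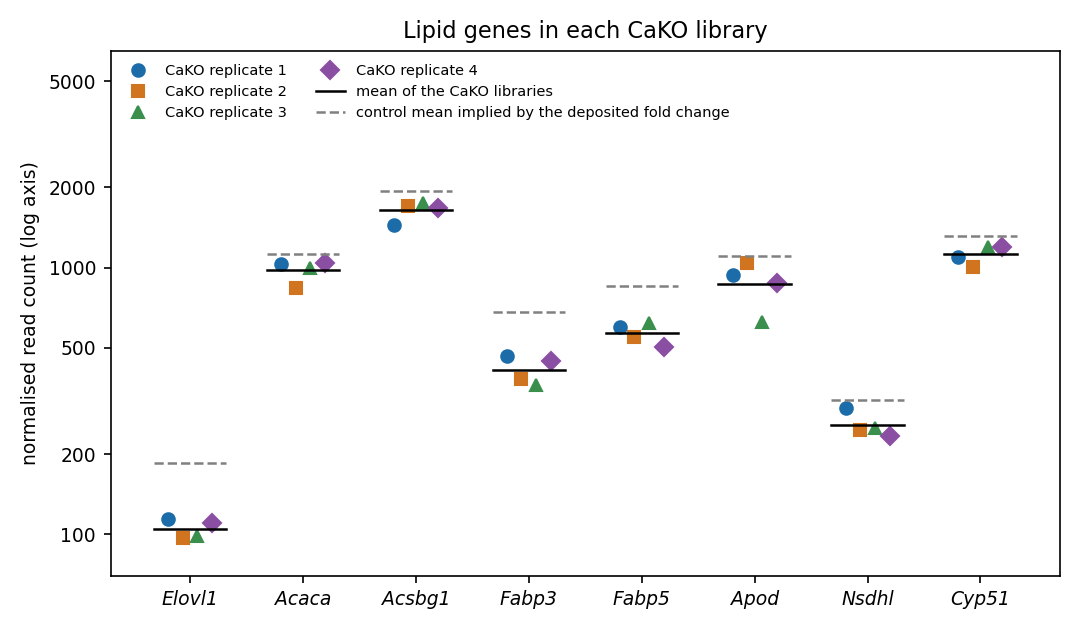
Normalised read counts (log axis) of the 8 genes in each of the 4 CaKO libraries (coloured symbols), with their mean (black line) and the control mean that the deposited fold change implies (grey dashed line). The implied control mean lies above all 4 CaKO libraries for each gene, relatively farthest above for Elovl1 and closest for Apod.

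Elovl1 (ENSMUSG00000006390.15, chromosome 4: 118428093 to 118432953) had 114.6, 97.19, 98.42 and 110.5 normalised counts in CaKO replicates 1 to 4, a mean of 105.2 ± 8.67 (SD, n = 4). The libraries lay close together and all 4 were below the control mean of 185.8 that the deposited fold change implies. The authors' deposited table gives Elovl1 a 1.77-fold decrease (log2 -0.82, 95% interval -1.12 to -0.52, adjusted p = 4.74e-05). It ranked 19th by p among the 2047 genes in the adjustment with a p below 0.05, and its decrease was the 35th largest of the 255 genes that fell. Its depth was the lowest of the 8, at 97 to 114 reads per library.

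Acaca (ENSMUSG00000020532.18, chromosome 11: 84129672 to 84401651), the first committed enzyme of fatty acid synthesis, had 1035, 835.6, 998.1 and 1044 normalised counts in replicates 1 to 4. Replicate 2 was the low one and the other three lay together. The log2 fold change was -0.20 in the authors' deposited table (95% interval -0.40 to -0.01, adjusted p = 0.295), so it did not pass. Without replicate 2 the log2 fold change became -0.13 by an approximation that recomputes the CaKO mean and widens the error. Acaca was the smallest decrease of the 8 genes in that table.

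Acsbg1 (ENSMUSG00000032281.11, chromosome 9: 54604877 to 54661870), an acyl-CoA synthetase known from astrocytes, had 1441, 1697, 1742 and 1668 normalised counts in replicates 1 to 4. Here replicate 1 was low, so the library order differed from that of Elovl1 and Acaca. The log2 fold change was -0.24 in the authors' deposited table (95% interval -0.40 to -0.07, adjusted p = 0.0981), and it did not pass.

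The carriers showed the next largest decreases. Fabp3 (ENSMUSG00000028773.8, chromosome 4: 130308595 to 130315463), the heart-type fatty acid binding protein also made in neurons, had 465.3, 381.7, 363.8 and 448.1 normalised counts, a mean of 414.8 ± 49.5 (SD, n = 4). Replicates 1 and 4 were higher than replicates 2 and 3, as they were for Elovl1, and all 4 were below the implied control mean of 681.6. The authors' deposited table gives Fabp3 a 1.64-fold decrease (log2 -0.72, 95% interval -1.01 to -0.42, adjusted p = 0.000539). Zcchc17 and Gm10570, on the opposite strand, share 9.8% and 9.7% of its exon sequence, and the sources used here do not say whether counting used strand.

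Fabp5 (ENSMUSG00000027533.10, chromosome 3: 10012548 to 10016607), the epidermal-type binding protein, had 597.0, 550.1, 622.3 and 503.3 normalised counts in replicates 1 to 4, a mean of 568.2 ± 52.6 (SD, n = 4). Its order across libraries differed from that of Fabp3: replicate 3 was the highest for Fabp5 and the lowest for Fabp3. Fabp5 fell to 66.6% of control as listed in the authors' deposited table (log2 -0.59, 95% interval -0.80 to -0.38, adjusted p = 2.74e-05). The 4 family members that lie beside it on chromosome 3 (Pmp2, Fabp9, Fabp4 and Fabp12) have no value there, nor has Fabp7, the brain-type protein of astrocytes and radial glia. The calls of Elovl1, Fabp3 and Fabp5 held with each CaKO library left out by the approximation. Their log2 fold changes then ranged from -0.86 to -0.79, -0.78 to -0.66 and -0.63 to -0.53.

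Apod (ENSMUSG00000022548.14, chromosome 16: 31296192 to 31314808) had 937.7, 1041, 623.3 and 872.2 normalised counts in replicates 1 to 4, a mean of 868.6 ± 178 (SD, n = 4). Replicate 3 was well under the other three, and replicate 2 came close to the implied control mean of 1102. The log2 fold change was -0.34 in the authors' deposited table (95% interval -0.65 to -0.04, adjusted p = 0.24), and it did not pass. Without replicate 3 it became -0.21. Replicate 3 also had the lowest summed level of the 8 astrocyte markers with a value (28331, against 31827 to 36454 in the others) and of the 5 excitatory neuron markers (52093, against 68300 to 72215). It was lowest as well for precursor or newly formed oligodendrocyte (2934), endothelial (3960), microglial (673.0) and meningeal, fibroblast and pericyte markers (946.4). The microglial sum holds 3 markers and the meningeal, fibroblast and pericyte sum 2. Of these 2, Fn1 was at its lowest in replicate 3 (659.1) and Ogn at its highest (287.3). For mature oligodendrocyte markers replicate 4 was lowest (40893, against 41906 in replicate 3). Low sums in replicate 3 thus appeared in more than 1 list. The sums hold only markers with an unadjusted p below 0.05, most of them lower in CaKO, which favours genes with a low CaKO library. They also follow abundant genes, such as Camk2a among neuron markers (mean 46287) and Sparcl1 among astrocyte markers (mean 18148). For these reasons the sums cannot say whether any cell type was low in replicate 3. The part of the low sums in the Apod value was not tested.

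The sterol enzymes were modestly lower and neither passed. Nsdhl (ENSMUSG00000031349.4, chromosome X: 72918557 to 72958514), a sterol dehydrogenase, had 297.5, 245.5, 250.5 and 233.4 normalised counts, with replicate 1 above the other three. Its log2 fold change was -0.32 in the authors' deposited table (95% interval -0.56 to -0.08, adjusted p = 0.14). Cyp51 (ENSMUSG00000001467.5, chromosome 5: 4081145 to 4104746), the lanosterol demethylase, had 1095, 1004, 1190 and 1199 normalised counts, with replicate 2 lowest. Its log2 fold change was -0.22 in the authors' deposited table (95% interval -0.40 to -0.05, adjusted p = 0.139). The 2 genes ran in different orders: replicate 4 was the lowest library for Nsdhl and the highest for Cyp51.

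**Figure D2:**
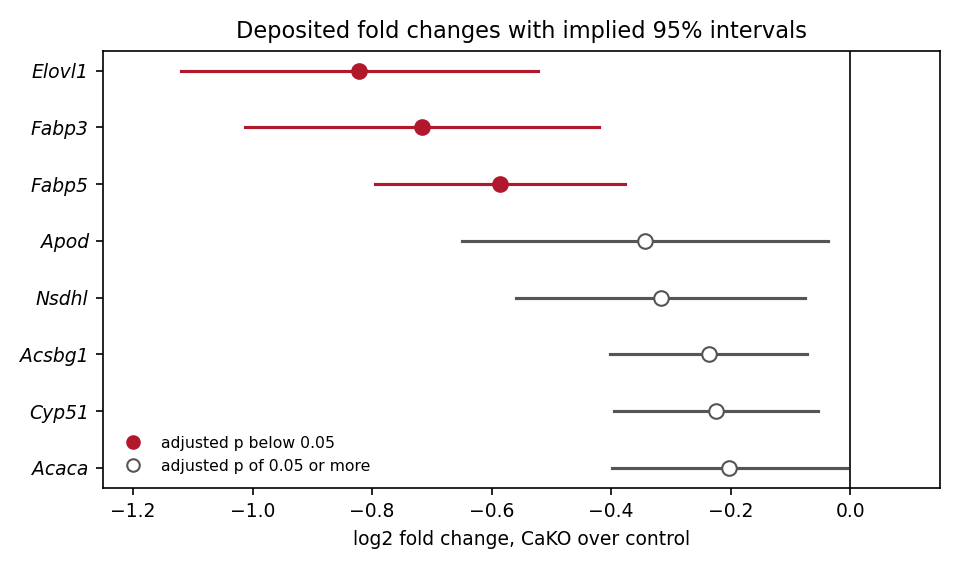
Log2 fold change, CaKO over control, in the authors' deposited table for the 8 genes (points), with 95% intervals derived from its p (lines). Filled points are the 3 genes with an adjusted p below 0.05, and the other 5, from Apod at -0.34 to Acaca at -0.20, are open.

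The implied control mean was above all 4 CaKO libraries for each of the 8 genes. The same held for 96.7% of the 1123 lower genes, so this separation is not a result about the members, and the spread of the controls is not part of it.

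The spread among the CaKO mice differed between the members. It enters the authors' p, so it is a description as well. For Elovl1 the coefficient of variation was 8.25%, below the 9.81% that counting this many reads gives by itself. For Apod it was 20.5%, 5.99 times its counting value of 3.41%, and larger than in 88.9% of the 1810 genes in the adjustment with a p below 0.05 and a mean of at least 100. The other six lay between 8.19% (Cyp51 and Acsbg1) and 11.9% (Fabp3), and all of them but Fabp3 were below the median of 11.2% over those genes. The spread exceeded the counting value in all members but Elovl1, where reads were fewest.

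**Figure D3:**
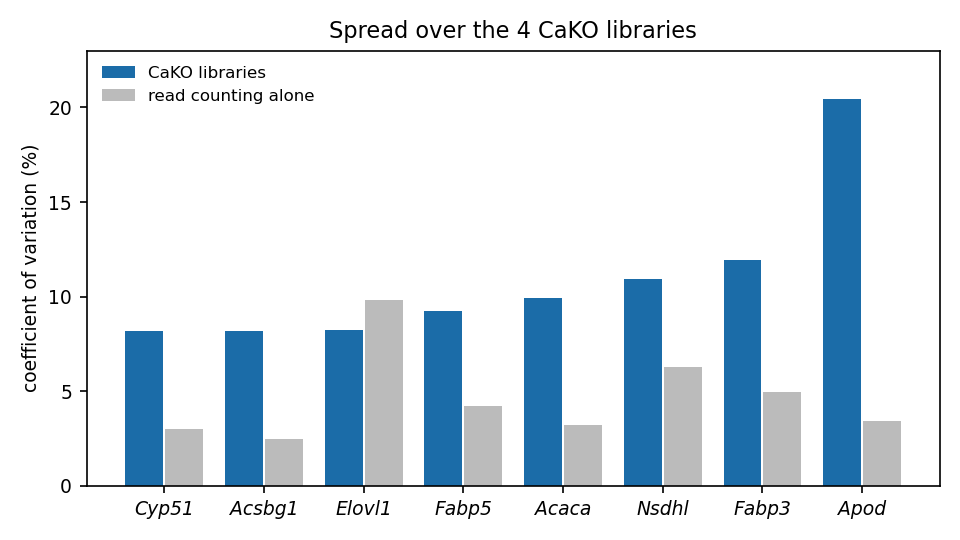
Coefficient of variation (%) of the normalised counts over the 4 CaKO libraries (blue bars) and the value expected from read counting alone (grey bars) for each gene. Apod stands highest at 20.5%, and Elovl1 is the one gene whose spread (8.25%) is under its counting value (9.81%).

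No library was low or high for the whole set. Replicate 1 was the highest for 3 of the 8 genes and replicate 2 for 1, with 2 each for replicates 3 and 4. Replicate 2 was the lowest for 3, replicate 1 for 1, and replicates 3 and 4 for 2 each. After centring each gene's log2 values on its own mean, the average profile of the 8 was 0.08, -0.04, -0.05 and 0.02 in replicates 1 to 4. The 3 genes nearest to this profile among 1789 others, by the root mean square difference over the 4 CaKO libraries, were Ncstn (0.012), Srp72 (0.015) and Rps20 (0.016), a subunit of gamma-secretase, a protein of the signal recognition particle and a ribosomal protein. With 4 libraries of 1 genotype and so flat a profile, this likeness is a description only.

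Per kilobase of exon, the CaKO level of the members spanned a wide range. Fabp3 was the highest at 504.0 ± 60.1 normalised counts per kilobase (SD, n = 4), followed by Acsbg1 at 454.3 ± 37.2, Apod at 337.0 ± 68.9 and Cyp51 at 254.1 ± 20.8. The ranges over libraries of neighbours overlapped among these 4, so their order is not firm. Fabp5 (159.3 ± 14.7), Nsdhl (89.98 ± 9.85), Acaca (57.3 ± 5.69) and Elovl1 (38.58 ± 3.18) followed without overlap. When the longest transcript replaced the exon length of the table, Acsbg1 (568.5) came before Fabp3 (504.0), and the ranges of Nsdhl and Acaca overlapped. The gene with the largest decrease was thus also the one with the lowest level per kilobase, both values being descriptions of 8 chosen genes.

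The other genes of the pathways were counted from 8 lists covering fatty acid synthesis, activation, carriage and oxidation, sterol synthesis, control and export, and myelin sphingolipids. The lists hold 178 genes, of which 30 had an unadjusted p below 0.05 in the authors' deposited table, 24 lower and 6 higher. Leaving out the 8 members, 16 of 170 were lower (9.41%) and 6 higher (3.53%), against 8.68% and 7.14% of all genes in the adjustment. By the adjusted p, 2 of the 170 fell and 1 rose, which is 1.18% and 0.59%, against 1.97% and 1.27% of all genes. Outside the members, then, the share of lower lipid genes was near that of all genes. With the members it was 13.48% (24 of 178). The members were chosen as lower, so leaving them out takes lower genes from the lists by design, and neither share is a test of the lists. Listed genes with no value include both genes with a p of 0.05 or more and genes that did not enter the adjustment, which lowers the shares of the lists.

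**Figure D4:**
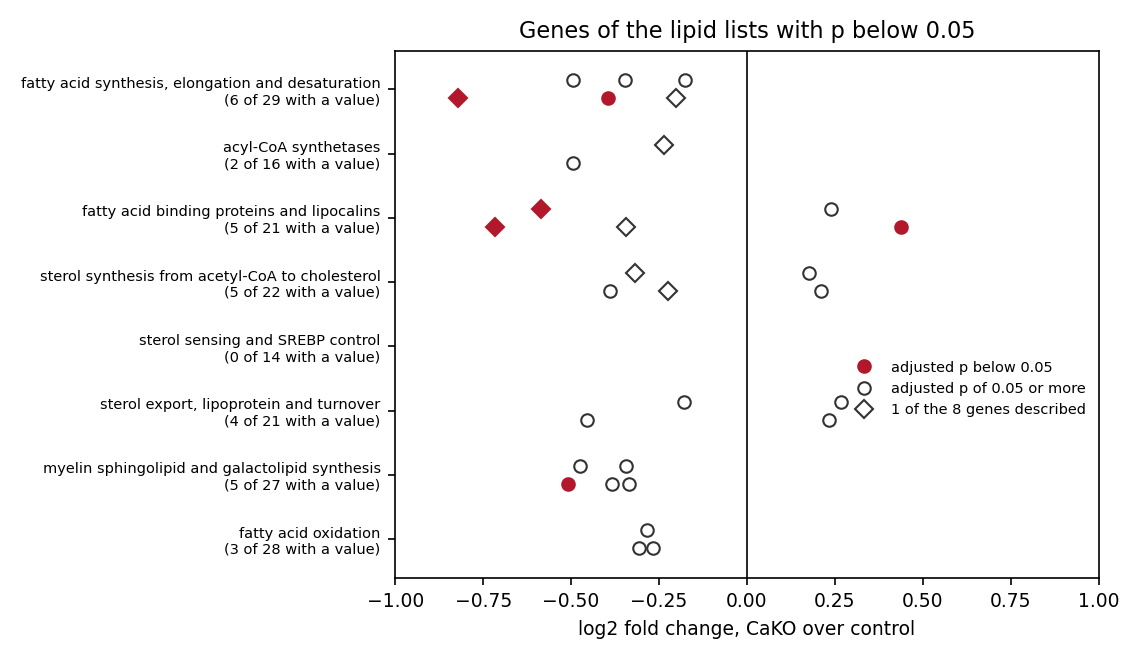
Log2 fold change, CaKO over control, in the authors' deposited table for each listed lipid gene with an unadjusted p below 0.05 that entered the adjustment, by list (rows); diamonds are the 8 genes described, circles other genes, and filled symbols have an adjusted p below 0.05. The 6 genes of fatty acid synthesis and the 5 of sphingolipid synthesis all lie below 0, while carriers, sterol synthesis and sterol export hold genes on both sides.

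Fatty acid synthesis, elongation and desaturation had 6 of 29 genes with a value, all lower, 2 of which fell (Elovl1 and Elovl5). As shares, 20.69% were lower and 6.9% fell, against 8.68% and 1.97% of all genes. Elovl1 and Acaca, chosen as lower, are among them. Elovl5, which lengthens polyunsaturated chains, averaged 977.8 ± 112 normalised counts (SD, n = 4). Its log2 decrease of -0.39 passed in the authors' deposited table (adjusted p = 0.0268). The call ended without CaKO replicate 3 (-0.38) or 4 (-0.34). The desaturases Fads2 and Scd2 did not pass, and the authors' deposited table has them at log2 values of -0.35 (adjusted p = 0.0603) and -0.18 (adjusted p = 0.0808). Neither did Thrsp, which promotes lipid synthesis, at -0.49 in the authors' deposited table (adjusted p = 0.0981). Fasn and Acly, the synthase and the enzyme that supplies its acetyl-CoA, have no value. Among 16 acyl-CoA synthetases, Acsf2 was the other gene with a value beside Acsbg1, at -0.49 in the authors' deposited table (adjusted p = 0.184). Lower genes thus made up 12.5% of that list, Acsbg1 having been chosen as lower.

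Carriers moved in both directions. Of 21 binding proteins and lipocalins, 5 had a value: Fabp3, Fabp5 and Apod were lower, Ptgds and Scp2 higher. As shares, 14.29% were lower and 9.52% higher, against 8.68% and 7.14% of all genes. By the adjusted p, 9.52% fell and 4.76% rose, against 1.97% and 1.27%. All the lower ones are members, chosen as lower. Ptgds, a lipocalin that makes prostaglandin and is abundant in meninges, averaged 6050 ± 525 normalised counts (SD, n = 4). Its log2 increase of 0.44 passed in the authors' deposited table (adjusted p = 0.0218), but without CaKO replicate 2 the call ended at 0.38. Scp2, a sterol and lipid carrier of peroxisomes, was at 0.24 in the authors' deposited table (adjusted p = 0.263), which did not pass. Among 17 meningeal, fibroblast and pericyte markers, 2 had a value: the authors' deposited table has Ogn risen by a log2 of 0.78 and Fn1 changed by -0.48, both calls. That is 5.88% of the list in each direction, against 1.97% of all genes called lower and 1.27% called higher. The call of Fn1 ended without CaKO replicate 2 (-0.45) or 3 (-0.40).

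Sterol synthesis was mixed and held no call. Of its 22 enzymes, 5 had a value, with Cyp51, Nsdhl and Mvd lower and Fdft1 and Acat2 higher. As shares, 13.64% were lower and 9.09% higher, against 8.68% and 7.14% of all genes. Cyp51 and Nsdhl had been chosen as lower. The authors' deposited table puts Mvd, of the mevalonate steps, at -0.39 (adjusted p = 0.275), Fdft1, squalene synthase, at 0.17 (adjusted p = 0.273) and Acat2, which starts from acetyl-CoA, at 0.21 (adjusted p = 0.314). Of the genes named here and in the next lists, Mvd, Acat2, Lrp8 and Etfb were picked for mention after their values were seen. Reads of Acat2 can be shared with Acat3, which is 97.7% identical over 1477 bases, and Ctsb covers 18.3% of the exons of Fdft1 on the opposite strand. Hmgcs1 and Sqle, well known targets of the sterol-sensing factor SREBP, have no value, and neither has any of the 14 genes of SREBP control. Among 21 genes of sterol export, lipoproteins and turnover, 4 had a value, 2 lower and 2 higher, with none passing. Either direction held 9.52% of the list, near the shares of all genes. The authors' deposited table has Lcat at -0.45 (adjusted p = 0.0981), Lrp8 at -0.18 (adjusted p = 0.299), Abcg1 at 0.27 (adjusted p = 0.129) and Soat1 at 0.23 (adjusted p = 0.282).

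Of 27 genes that make or handle myelin sphingolipids and galactolipids, 5 had a value and all were lower. As shares, 18.52% were lower and 3.7% fell, against 8.68% and 1.97% of all genes. Fa2h, which adds the hydroxyl group of myelin fatty acids, averaged 284.9 ± 51.7 normalised counts (SD, n = 4). Its log2 decrease of -0.51 passed in the authors' deposited table (adjusted p = 0.0283), but without CaKO replicate 3 the call ended at -0.40. Cers2, the ceramide synthase that uses very long acyl chains such as those Elovl1 makes, was at -0.34 in the authors' deposited table (adjusted p = 0.0753). The same authors' deposited table has Ugt8a, the galactosyltransferase of myelin lipids, at -0.48 (adjusted p = 0.12) and the glycolipid transfer protein Gltp at -0.38 (adjusted p = 0.149), so none of these passed. Of 28 genes of fatty acid oxidation, Etfdh (-0.31), Cpt1a (-0.28) and Eci2 (-0.27) had a value and were in the adjustment of the authors' deposited table, with none passing (adjusted p from 0.109 to 0.229). Lower genes were thus 10.71% of this list, near the share of all genes. Etfb, of the same list, has a log2 value of -0.87 in the authors' deposited table at a CaKO mean of 12.9 normalised counts, with an adjusted p listed as 1, and was left out of the counts.

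Oligodendrocytes and astrocytes make much of the brain's lipid, and such markers of these cells as had a value were lower in the same comparison. Of 22 markers of mature oligodendrocytes, the authors' deposited table holds 15 with an unadjusted p below 0.05. Each of the 15 was lower (median log2 value -0.43 in the authors' deposited table) and 4 fell. Of the list, 68.18% were thus lower and 18.18% fell, against 8.68% and 1.97% of all genes in the adjustment. The summed level of the 15 ran from 40893 to 49438 normalised counts over the CaKO libraries. Among 14 genes marking precursors or newly formed oligodendrocytes, 7 had a value, all lower (median -0.59 in the authors' deposited table), and 3 fell. Of 20 astrocyte markers, 8 had a value, all lower (median -0.35 in the authors' deposited table), and 4 fell, with sums of 28331 to 36454. No marker with a value was at 0 in any CaKO library, while some defining genes (Olig2, Sox10, Aqp4 and Slc1a3) have no value. In the authors' deposited table the 15 mature oligodendrocyte markers ran from a log2 value of -0.73 to -0.31. The structural myelin genes Mobp (-0.73) and Mbp (-0.68) had the largest decreases of the 15, and Cnp stood at -0.35. The 8 lipid genes ran from -0.82 (Elovl1) to -0.20 (Acaca) in the same table. Excitatory neurons, the cells Cre acts in, had 5 of 10 markers with a value, all lower (median -0.44 in the authors' deposited table), and 2 fell. The called genes by the rule for named genes were Mobp, Mbp and Cnp for mature oligodendrocytes, Gpr17, Bcas1 and Olig1 for earlier stages, Hepacam, Atp1b2 and Sparcl1 for astrocytes, and Cck and Nrgn for excitatory neurons. Without CaKO replicate 3 the calls of Olig1 (-0.37), Atp1b2 (-0.38), Sparcl1 (-0.30), Cck (-0.36) and Nrgn (-0.37) ended, as did those of Olig1 (-0.43) and Cck (-0.43) without replicate 2. The part of these cell types in the lower lipid transcripts was not tested.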

How the data were processed

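RNA from the mPFC of 4 CaKO and 4 control mice was poly-A selected and sequenced, per the labels' protocols. The submitters' processing notes name TopHat2 2.0.12, HTSeq 0.6.1 and DESeq2 1.30.1 and the genome GRCm38 (mm10), and per the series' design text reads were aligned with the first and counted with the second. The deposited library values are a signal, read counts that the authors divided by 1 factor per library (1 read is worth 0.9941 to 1.042): 100.0% of the values above 0 in each library were whole multiples of it within 0.01, although the table is named for FPKM. The log2 fold changes, p-values and adjusted p-values are the authors', as deposited. Fold changes are CaKO over control, since the 18 genes without a read in any CaKO library all have values below 0. The table lists genes with an unadjusted p up to 0.0499. The adjusted values follow Benjamini-Hochberg over 12938 genes (largest relative difference 0.005), and 325 genes with an adjusted p listed as 1 were left out of counts. Reads over the table ran from 2832931 to 3183638 per CaKO library, and total depth is unknown. The count of per-sample columns left unused was 0.

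Genes were matched to GENCODE M21 by chromosome, start, end and strand (2266 exactly, 89 by at least 80% mutual overlap, 17 unmatched), and copies were searched with BLAST 2.17.0 (at least 95% identity over 200 bases and 50% of the gene's or the copy's transcript). The design foresaw a count test if both groups had reads. It was not run, and the calls are the authors'. Leaving out a library was approximated: the CaKO mean was recomputed, the standard error implied by the p widened, and a call kept at a p up to 0.00162. Named genes were the members, the called genes of each lipid list with up to 3 others of smallest p, up to 3 called genes of each marker list, and the 3 genes nearest in profile. Members and lists were chosen with earlier results of these data known. Protein identities were not computed, and coding bases were compared instead.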

Additional observations from a re-analysis of the deposited data

Results flagged for a closer look

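Among 45 named genes, the 4 CaKO values of 1, the myelin enzyme gene Cnp, had a single library apart from the rest. Its highest library, replicate 1, held 2560 normalised counts against 2264 to 2285 in the others, a gap of 0.929 of the whole range. The critical value used (Dixon, 95% level) lies below this gap and is passed by chance in about 1 of 20 groups. None of the 8 lipid genes passed it.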

How the results depend on the processing

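No paired analysis was possible because values of single libraries were used for the CaKO mice alone. For the 8 lipid genes, 5 settings recomputed the fold change (each CaKO library left out, or libraries rescaled), and all 40 values kept their direction and their side of the threshold. Genes that were not called had no call to lose, so for them this is no sign of stability. With 1 CaKO library left out, the largest p by the approximation was 0.217 for Acaca, 0.205 for Apod and 0.063 for Cyp51. These lie above the 0.05 that the genes met in the authors' deposited table. The remaining 5 of the 10 settings changed the limit or the genes kept and left the fold changes as they were. Under these, 39 of 40 calls were as before, the exception being Acsbg1, which passed at an adjusted p below 0.1. The number of the 8 that fell was 3 under each of the 10 settings except an adjusted p below 0.1, where it was 4. Without single CaKO libraries, all genes called came to between 111 (without replicate 3) and 281 lower and between 82 (without replicate 3) and 150 higher, against 255 and 164. Listed lipid genes came to between 3 (without replicate 3) and 6 called lower, 0 (without replicate 2) and 1 called higher, and 2 (without replicate 3) and 5 higher at an unadjusted p below 0.05. Those lower at an unadjusted p below 0.05 came to between 19 and 23, against 24. An adjusted p below 0.01 gave 90 lower and 51 higher over all genes and 3 and 0 over the lipid lists, one below 0.1 gave 396 and 275 over all genes and 11 lower over the lists, and Holm adjustment gave 36 and 17 over all genes and 3 and 0 over the lists. These follow from the stricter or looser limit itself. The fit with the replicate number as a block was not run. Without the controls' values, loss of a control library cannot be examined, and genes outside the table cannot gain a call. The widened error alone would leave 183 lower and 104 higher calls.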

Other observations

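A lipid carrier outside the lists was also lower. Mfsd2a, the transporter that brings polyunsaturated lysolipids across the blood-brain barrier, was on the list of 16 endothelial markers, of which 5 had a value and all 5 were lower. At an unadjusted p below 0.05, 31.25% of the list were thus lower, against 8.68% of all genes, and 12.5% fell, against 1.97%. Mfsd2a had 342.7 to 406.4 normalised counts over the CaKO libraries, a mean of 383.2 ± 27.96 (SD, n = 4). Its log2 decrease of -0.45 passed in the authors' deposited table (adjusted p = 0.0178), but without CaKO replicate 2 the call ended at -0.40. Ly6c1, the other endothelial call, stands at -0.39 in the authors' deposited table (adjusted p = 0.00481), though its near copy Ly6c2 (97.6% identical over 822 bases) could share its reads. Of 14 microglial markers, 3 had a value, 2 lower and 1 higher (14.29% and 7.14%, against 8.68% and 7.14% of all genes). Trem2 (0.32, adjusted p = 0.302) and Selplg (-0.25, adjusted p = 0.315) did not pass in the authors' deposited table, and were picked for mention after their values were seen. The authors' deposited table gives Fcrls a log2 decrease of -0.53 (adjusted p = 0.0163), a call that ended without CaKO replicate 3 at -0.44.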
